A study of Saccharomyces cerevisiae with 2 samples.

Results

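SPS2, SPS22, ECM33 and PST1 are 4 related budding yeast genes for glycoproteins that are carried to the cell surface on a glycosylphosphatidylinositol (GPI) lipid anchor. They were taken by name from the table of ribosome footprints, which holds 6592 named genes, and all 4 were found. Footprints are the stretches of mRNA that ribosomes protect, and their number reflects both the amount of an mRNA and how heavily it is translated. There were 2 cultures of the SK1 strain, a background that enters meiosis efficiently. One carried a deletion of GIM3, which encodes a subunit of the prefoldin cochaperone, and the other was wild type (WT). Each was grown in YEPD at 22 degrees C for 24 hours and in BYTA for 16 hours, washed, and sampled 4 hours after transfer to sporulation medium. With 1 library per genotype there was no replicate error and no test between genotypes. Folds describe this pair of libraries, and their 95% intervals cover counting error only.

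The family divides by stage of life. Sps2 and Sps22 are made during sporulation and act redundantly in forming the glucan layer of the spore wall, which is laid down inside the prospore membrane once the meiotic divisions are complete. Ecm33 and Pst1 belong to the wall of growing cells. Ecm33 is needed for an ordered wall and its outer mannoprotein layer, and PST1 is a classic target of the cell wall integrity pathway, in which the kinase Slt2 activates the transcription factor Rlm1. SPS2 (YDR522C) and PST1 (YDR055W) lie on chromosome IV, SPS22 (YCL048W) on chromosome III and ECM33 (YBR078W) on chromosome II. None of the 4 overlaps another gene in the R64 reference annotation of the S288C strain.

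The libraries held 27864644 counted footprints for gim3 deletion and 40433177 for WT. GIM3 itself had 3 reads in the gim3 deletion library and 1413 in the WT library. A gene was compared when its mean over both libraries was at least 10 RPM (reads per 1000000 counted reads of the library), which held for 4916 genes and for all 4 members. In the gim3 deletion library 6.35% of the compared genes passed 2-fold upwards and 8.50% downwards on the scale of log2(RPM + 1), and the median of all log2 ratios was -0.20. These are 312 and 418 genes, or 408 and 256 once centred on the median gene.

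The sporulation members were higher in the gim3 deletion library and the vegetative members were lower. SPS2 stood at 7784 RPM (216885 reads) in the gim3 deletion library and at 384 RPM (15528 reads) in the WT library. The ratio was 20.3 (19.9 to 20.6). SPS22 stood at 2918 RPM (81322 reads) in the gim3 deletion library, against 155 RPM (6279 reads) in the WT library, with a ratio of 18.8 (18.3 to 19.3). Both sporulation genes were thus far above the 2-fold line, and the counting intervals of the levels did not overlap between the libraries.

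ECM33 had 80.1 RPM (2232 reads) in the gim3 deletion library, against 357 RPM (14421 reads) in the WT library. It was 4.45-fold lower in the gim3 deletion library (4.26 to 4.66). PST1 had 47.8 RPM (1331 reads) in the gim3 deletion library, against 96.2 RPM (3889 reads) in the WT library. The ratio of its RPM values put it 2.01-fold lower (1.89 to 2.14), and its log2 ratio with 1 RPM added was -0.995. PST1 thus lay at the 2-fold line, inside it with the pseudocount and outside it without. Under the rule with the pseudocount, 2 of the 4 members were at least 2-fold higher, 1 was at least 2-fold lower and 1 was within 2-fold, where 6.35% and 8.50% of all compared genes were higher and lower. In these bulk cultures, a change in the share of cells that express a gene and a change in footprints per cell cannot be told apart.

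The members stood near the ends of the distribution of ratios, apart from PST1. Of the 4916 compared genes, 2 had a higher log2 ratio than SPS2 and 6 a higher one than SPS22. At the other end, 23 genes had a lower log2 ratio than ECM33, and 428 had a lower one than PST1. By level, SPS2 ranked 6 among the named genes in the gim3 deletion library and 476 in the WT library. SPS22 ranked 40 in the gim3 deletion library and 1240 in the WT library. ECM33 ranked 2005 in the gim3 deletion library, against 517 in the WT library, and PST1 ranked 2775 in the gim3 deletion library, against 1858 in the WT library. The ranks are by RPM, which is not divided by gene length.

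**Figure D1:**
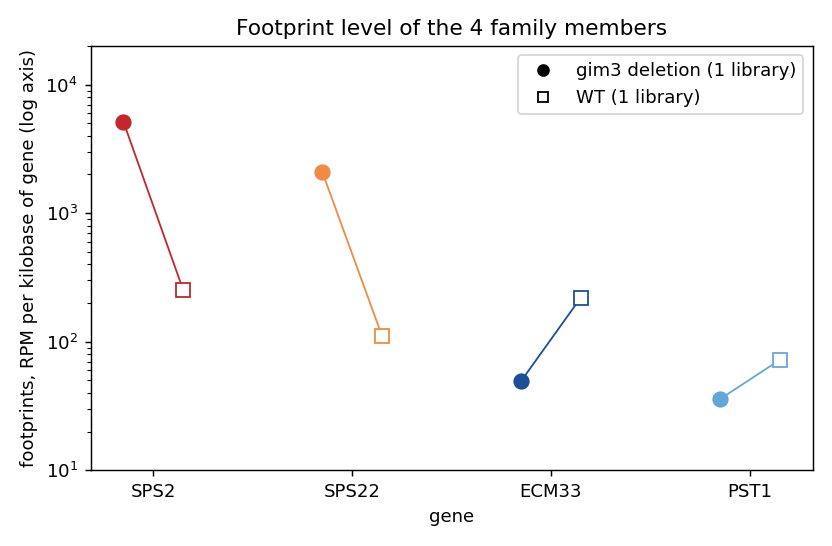
Footprint level of each member in RPM per kilobase of gene, on a log axis, with filled circles for the gim3 deletion library and open squares for the WT library (1 library each). Bars are exact Poisson 95% intervals, which are smaller than the symbols. SPS2 and SPS22 are higher in the gim3 deletion library and ECM33 and PST1 are lower.

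Levels of different genes were compared per kilobase of gene in the R64 annotation, with lengths of 1509 bases for SPS2, 1392 for SPS22, 1620 for ECM33 and 1335 for PST1. The length of ECM33 includes its intron, so its level per kilobase is understated. In the gim3 deletion library the order was SPS2 (5158 RPM per kilobase), SPS22 (2097), ECM33 (49.4) and PST1 (35.8). In the WT library it was SPS2 (254), ECM33 (220), SPS22 (112) and PST1 (72.0). The plot of levels per kilobase shows that the order of SPS22 and ECM33 changed between the libraries. Neighbours in each order differed by more than counting error. The closest were SPS2 and ECM33 in the WT library, with a ratio of 1.16 per kilobase (1.13 to 1.18). Because of the intron in the ECM33 length, that small difference does not fix which of them was the higher per coding base. In the gim3 deletion library the same ratio was 104 (100.1 to 109).

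The sporulation pair kept nearly the same proportion in both libraries, and the vegetative pair did not. SPS2 was 2.46 times the level of SPS22 per kilobase in the gim3 deletion library and 2.28 times in the WT library. The ratio of these ratios was 1.08 (Wald interval 1.05 to 1.11). ECM33 was 1.38 times the level of PST1 per kilobase in the gim3 deletion library, against 3.06 times in the WT library. The intron in the ECM33 length understates both values but does not alter their change. The proportion of ECM33 to PST1 was 2.21-fold lower in the gim3 deletion library (2.05 to 2.39). How reads that match more than one place were treated is not given in the sources used here, and reads shared between paralogs may have been divided or lost.

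Together the 4 genes took 1.083% of all footprints in the gim3 deletion library (Wilson interval 1.079 to 1.087) and 0.0992% in the WT library (0.0983 to 0.1002). SPS2 and SPS22 summed to 10702 RPM in the gim3 deletion library and to 539 RPM in the WT library, a ratio of 19.8 (19.6 to 20.1). ECM33 and PST1 summed to 128 RPM in the gim3 deletion library, against 453 RPM in the WT library, which was 3.54-fold lower (3.42 to 3.67). Of the family's footprints, SPS2 and SPS22 held 98.8% in the gim3 deletion library (98.8 to 98.9) and 54.4% in the WT library (53.9 to 54.8). The vegetative pair held 1.18% of them in the gim3 deletion library and 45.6% in the WT library, so that the pairs were of similar size in WT cells.

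**Figure D2:**
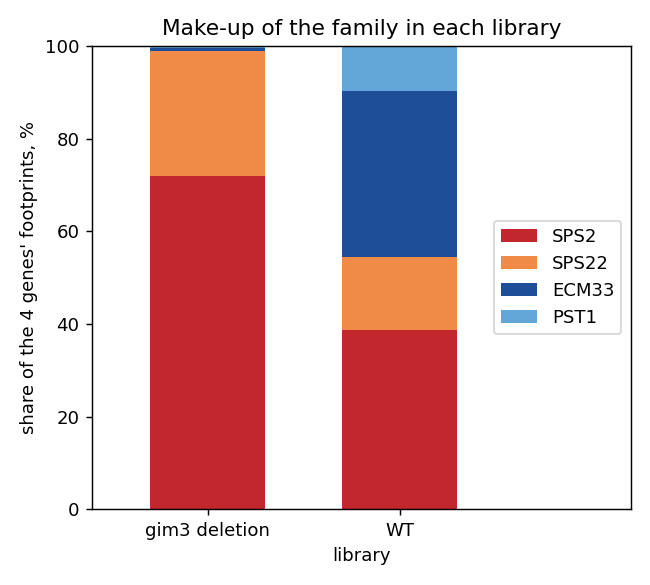
Share of the summed footprints of the 4 genes held by each gene, in percent, in the gim3 deletion library (left bar) and the WT library (right bar), not divided by gene length. SPS2 holds 71.9% in the gim3 deletion library and 38.7% in the WT library, and ECM33 holds 0.740% in the gim3 deletion library and 35.9% in the WT library.

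The sporulation pair was set beside other genes that build the spore wall. Of 27 such genes, 26 were compared. In the gim3 deletion library 19 were at least 2-fold higher, 1 was at least 2-fold lower and 6 were within 2-fold. Across all compared genes, 6.35% were higher and 8.50% lower by as much. The list median was a log2 ratio of 3.24, against -0.20 over all compared genes. SPS2 and SPS22 lay above 25 of the 26. The exception was GAS2, a glucanosyltransferase that remodels glucan in the spore wall, which had 1257 RPM in the gim3 deletion library, against 48.2 RPM in the WT library (ratio 26.1, interval 24.9 to 27.3). GAS4, its partner enzyme, had a ratio of 10.2 (9.98 to 10.5), with 1844 RPM in the gim3 deletion library and 180 in the WT library. The wall of growing cells uses GAS1, GAS3 and GAS5 from the same enzyme family, and these had log2 ratios of -0.29, -0.66 and -1.26. Of these only GAS5 was at least 2-fold lower, and GAS1 lay close to the median of -0.20 over all compared genes.

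Genes of the glucan, chitosan and dityrosine layers of the spore wall were among the higher ones, though not all of them. SPR1, a sporulation-specific glucanase, had a ratio of 11.5 (11.2 to 11.8), and CRR1, a glycosidase of the spore wall, one of 4.30 (4.18 to 4.43). CDA1 and CDA2, the deacetylases that turn chitin into the chitosan layer, had ratios of 12.5 and 10.3. DTR1, a dityrosine transporter that serves the outermost layer, had a ratio of 12.1. The genes that make the dityrosine precursor differed less or were scarce, with 18.02 RPM for DIT1 in the gim3 deletion library and 14.8 in the WT library, and 5.06 RPM for DIT2 in the gim3 deletion library and 2.03 in the WT library. In contrast, FKS3, a glucan synthase homologue, had 2107 RPM in the gim3 deletion library and 2264 in the WT library, and CHS3, the catalytic subunit of chitin synthase III, had 296 RPM in the gim3 deletion library and 245 in the WT library. SHC1, a sporulation-specific activator of Chs3, had a log2 ratio of -0.20. SPS100, a late spore wall gene, was lowest, with 5.31 RPM in the gim3 deletion library and 18.5 RPM in the WT library (3.49-fold lower, 2.92 to 4.19).

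The vegetative pair was set beside other proteins and enzymes of the wall of growing cells. Of 41 such genes, 32 were compared. In the gim3 deletion library 10 were at least 2-fold lower, 1 was at least 2-fold higher and 21 were within 2-fold. By comparison, 8.50% of all compared genes were lower and 6.35% higher by as much. The list median was a log2 ratio of -0.60, where that of all compared genes was -0.20. ECM33 lay below 30 of the 32. The exceptions were SCW4, a glucanase-like wall protein, with 15.7 RPM in the gim3 deletion library and 141 RPM in the WT library (9.02-fold lower, 8.18 to 9.96), and CCW12, an abundant small mannoprotein, with 40.4 RPM in the gim3 deletion library and 199 RPM in the WT library (4.92-fold lower, 4.62 to 5.24). SED1, a structural wall protein, had 1848 RPM in the gim3 deletion library, against 5894 RPM in the WT library. BGL2, a glucan-modifying enzyme, was 3.58-fold lower. PST1 had a lower log2 ratio than 22 of the 32 and a higher one than 10.

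CWP1 stood apart from the other vegetative wall genes. This mannoprotein of the wall of growing cells had 2580 RPM in the gim3 deletion library and 207 RPM in the WT library, a ratio of 12.5 (12.2 to 12.8). It was the highest of the 32 in ratio, and the next was KNH1, a relative of the glucan synthesis gene KRE9, at a log2 ratio of 0.96. The levels of CWP1 were closer to those of SPS22 than to those of ECM33 or PST1 in both libraries.

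The pathway that controls PST1 was examined next. Of 19 genes of the wall integrity pathway, 16 were compared. Of these, 2 were at least 2-fold higher in the gim3 deletion library and 0 were lower by as much, with a median log2 ratio of -0.27. The 14 within 2-fold are a share near that of all compared genes, of which 4186 of 4916 lay within 2-fold. The higher genes were the phosphatases MSG5, with 78.1 RPM in the gim3 deletion library and 31.2 in the WT library, and SDP1, with 40.4 RPM in the gim3 deletion library and 16.2 in the WT library. Both are known to act on Slt2. SLT2 was the lowest of the list at 31.8 RPM in the gim3 deletion library, against 61.1 RPM in the WT library, and RLM1 had 54.3 RPM in the gim3 deletion library and 42.3 in the WT library. There were 14 other genes listed as dependent on Rlm1, all compared. In this list 2 were at least 2-fold lower, 1 was at least 2-fold higher and 11 were within 2-fold. The shares over all compared genes were 8.50% lower and 6.35% higher. The median log2 ratio of the 14 was 0.05, and PST1 lay below 12 of them. The lower genes were SED1 and CCW14 and the higher one CWP1. These and most others of the 14 are also among the vegetative wall genes above, and SLT2 is also in the pathway list. The lists are thus not separate comparisons.

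The 4 proteins share a GPI anchor, and the genes that build and attach it mostly lay within 2-fold, as did most compared genes. Of 27 such genes, 21 were compared. At the 2-fold line 0 were higher and 1 was lower in the gim3 deletion library, or 1 and 0 once centred on the median gene. Of all compared genes, 6.35% were higher and 8.50% lower without centring. The list median log2 ratio of -0.21 was close to that of all compared genes. Values ran from LAS21, an enzyme that modifies the anchor, at -1.01 to GPI8, the catalytic subunit of the transamidase that attaches it, at 0.93. No tests were made on these lists.

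**Figure D3:**
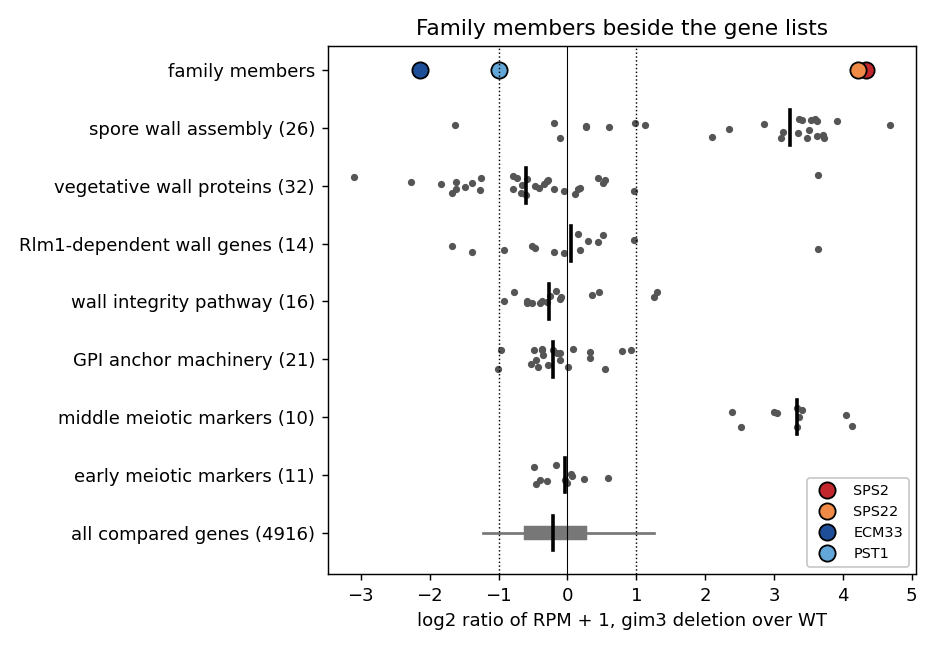
Log2 ratio of RPM + 1, gim3 deletion over WT, for the 4 members (top) and for the compared genes of each list (grey points, number in brackets, shifted up and down at random to separate them). Black bars are medians, dotted lines mark 2-fold, and the bottom row gives the central 50% (thick) and 90% (thin) of all 4916 compared genes. SPS2 and SPS22 lie right of all spore wall genes but GAS2, and ECM33 lies left of all vegetative wall genes but SCW4 and CCW12.

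Markers of the middle stage of meiosis were higher along with SPS2 and SPS22, and early markers were within 2-fold. Of 11 genes that mark the middle programme, which the transcription factor Ndt80 switches on and to which SPS2 also belongs, 10 were compared and all 10 were at least 2-fold higher in the gim3 deletion library. Their log2 ratios ran from 2.39 for NDT80 to 4.13 for SMA2, a prospore membrane gene, below those of both SPS2 and SPS22. The summed level of the 11 markers was 16486 RPM in the gim3 deletion library and 1939 RPM in the WT library. Of 11 early meiotic markers 0 passed 2-fold, from REC8, the meiotic cohesin subunit, at -0.49 to IME2, a meiotic kinase, at 0.59, and they summed to 18517 RPM in the gim3 deletion library and 18661 RPM in the WT library. For all compared genes the shares at least 2-fold higher and lower were 6.35% and 8.50%. The part of meiotic stage in the values of the 4 members was not tested.

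Markers of other cell states were mostly scarce, with the G protein genes STE18 and STE4 as exceptions. Of 13 haploid and mating genes 5 passed 10 RPM, with 2 at least 2-fold higher and 0 lower. Among all compared genes these shares were 6.35% and 8.50%. The list summed to 268 RPM in the gim3 deletion library and 91.7 RPM in the WT library. STE18, a G protein subunit of the mating pathway, had 124 RPM in the gim3 deletion library and 9.77 RPM in the WT library, and its log2 ratio of 3.53 was the highest. STE4, the partner subunit of Ste18, had 62.9 RPM in the gim3 deletion library and 21.4 RPM in the WT library. GPA1, the alpha subunit, was the lowest of the 5 at a log2 ratio of -0.10. The pheromone receptor gene STE2 had 1.00 RPM in the gim3 deletion library and 0.495 RPM in the WT library. Of 10 genes of mitotic G1 and daughter cells 2 passed 10 RPM, DSE1 at -0.35 and ASH1 at -0.52, and the list summed to 58.6 RPM in the gim3 deletion library and 79.8 RPM in the WT library.

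For each member, the 3 genes with the most similar levels were found by distance in log2(RPM + 1) over the 2 libraries. Nearest to SPS2 were RRT5 (distance 0.41), the lipid droplet gene LDS2 (0.95) and the sporulation gene SPS4 (0.99). RRT5 had 5862 RPM in the gim3 deletion library and 378 RPM in the WT library. Nearest to SPS22 were PES4 (0.34), CWP1 (0.45) and MIP6 (0.56). PES4 and MIP6, which encode related RNA-binding proteins, had 3009 and 2166 RPM in the gim3 deletion library, against 197 and 199 RPM in the WT library. All 6 neighbours of the sporulation pair had lower ratios than the member they were nearest to. So did nearly all compared genes, since only 2 had a higher log2 ratio than SPS2 and 6 a higher one than SPS22.

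Nearest to ECM33 were YGP1, a secreted glycoprotein gene (0.21), RPP0, a protein of the ribosomal stalk (0.21), and MET5, a sulfite reductase subunit (0.26). YGP1 had 88.8 RPM in the gim3 deletion library and 396 RPM in the WT library. Nearest to PST1 were YBR096W (0.034), LYS1 of lysine synthesis (0.035) and the thymidylate synthase gene CDC21 (0.037). Within a distance of 0.5 there was 1 gene for SPS2, 2 for SPS22, 9 for ECM33 and 231 for PST1, so that PST1 shared its pair of levels with many genes and SPS2 with few. With 2 libraries this likeness is a description of 2 levels per gene.

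**Figure D4:**
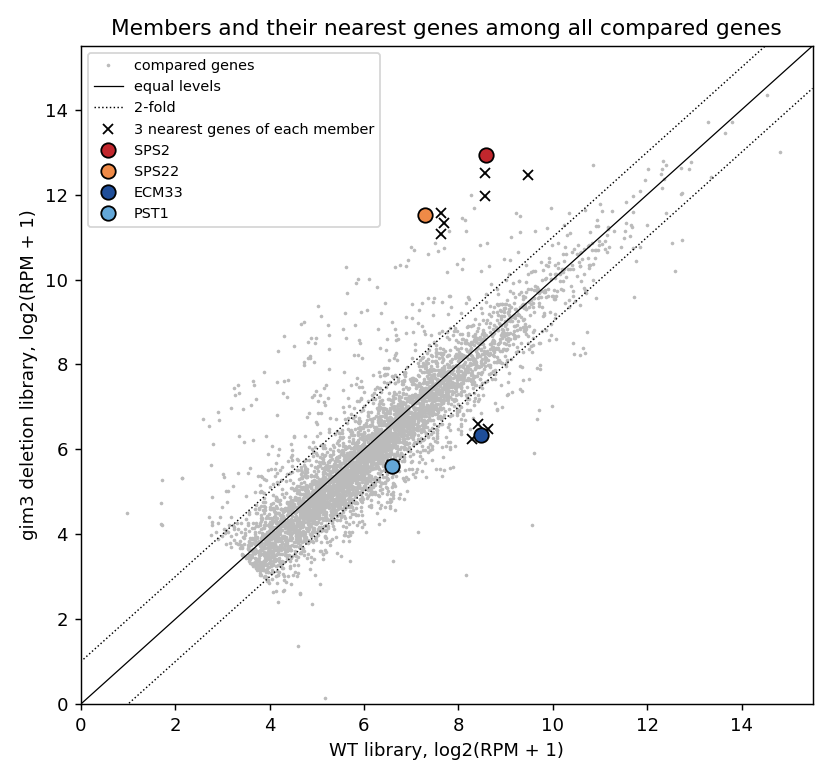
Level of each compared gene in the gim3 deletion library (vertical) against the WT library (horizontal), both as log2(RPM + 1), with 1 library per genotype. Circles are the members, crosses the 3 nearest genes of each (those of PST1 lie under its circle), the solid line marks equal levels and the dotted lines 2-fold. SPS2 and SPS22 lie far above the cloud among few genes, ECM33 below it and PST1 at the 2-fold line.

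Genes next to the members on the chromosome were compared in the R64 order. SPS2 lies between URC2, which acts in uracil breakdown, and SPS1, a kinase needed for spore formation. SPS1 had 48.3 RPM in the gim3 deletion library and 5.79 RPM in the WT library, a ratio of 8.35 (7.26 to 9.63), and URC2 had 25.2 RPM in the gim3 deletion library and 28.5 in the WT library. The neighbours of SPS22 were scarce, with 3.45 RPM for YCL048W-A and 12.1 for POF1 in the gim3 deletion library, against 6.26 and 16.1 RPM in the WT library. Beside ECM33, SLM4 had 72.6 RPM in the gim3 deletion library and 77.9 in the WT library, and RPG1, a subunit of an initiation factor complex, had 126 RPM in the gim3 deletion library and 265 in the WT library. Beside PST1, CDC34, a ubiquitin-conjugating enzyme, had 289 RPM in the gim3 deletion library and 250.0 in the WT library, and EMC10, of an endoplasmic reticulum membrane complex, had 63.9 RPM in the gim3 deletion library and 120.0 in the WT library. Among these 8 neighbours SPS1 alone was at least 2-fold higher and RPG1 alone at least 2-fold lower. The log2 ratio of RPG1 was -1.06, or -0.85 when centred on the median gene. As background, 6.35% of all compared genes were higher and 8.50% lower by at least 2-fold. YCL048W-A lay below 10 RPM.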

How the data were processed

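Ribosome footprints were measured in 1 gim3 deletion and 1 WT library. The authors deposited their values as 1 table of genes by libraries. Each column sums to 1000000, so the deposited values are RPM, not divided by gene length, as found from the values. All values (100%, within 0.001 of a read) were whole multiples of the smallest, so whole reads were recovered. The tools named per the submitters' processing notes are STAR, Bowtie2 and SAMtools. Their genome build, annotation and counting rules were not given in the sources used here. The 86 unnamed lines (0.124% of gim3 deletion and 0.121% of WT reads) were left out. Names were matched to the R64 RefSeq table for 5910 of 6592 genes, which gave lengths, synonyms and neighbours. R64 is the S288C genome, not SK1.

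Folds are ratios of RPM with exact (Clopper-Pearson) 95% intervals on the division of reads. Ratios of ratios have Wald intervals, shares Wilson intervals and levels exact Poisson intervals. Reads carry no stated molecular identifiers, so all intervals cover counting error alone. Log2 ratios add 1 RPM, which understates low genes. A negative binomial count test was not run, since 1 library per genotype leaves no residual degrees of freedom. An exact binomial comparison of the recovered reads (Benjamini-Hochberg adjusted) sets library against library, not genotype against genotype, and 4331 of 4916 genes differed in it. The 2-fold rule was tested on simulated data with counting error only, which cannot show how it behaves under the spread between cultures.

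Named genes were the members, the 3 nearest genes of each, their chromosomal neighbours and both extremes of each of 9 lists. Other list members were chosen as examples after their values were seen. The members and lists were chosen with earlier results of these data known. Protein and promoter sequences were not analysed here. Calculations used SciPy 1.17.1, numpy 2.4.6 and pandas 2.3.3 under Python 3.11.15, and plots matplotlib 3.10.9.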

Additional observations from a re-analysis of the deposited data

How the results depend on the processing

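All 4 members kept their direction under every alternative tried (pseudocounts of 0.1 and 5 RPM and none, the last chosen after seeing the data, and 3 other scalings). SPS2, SPS22, ECM33 and PST1 had log2 ratios of 4.54, 4.43, -1.94 and -0.79 when centred on the median gene and 4.51, 4.40, -1.97 and -0.82 with a trimmed mean. With totals that left out the members and the spore wall and middle meiotic lists, SPS2, SPS22 and ECM33 were at 4.40, 4.29 and -2.08. PST1 passed 2-fold at -1.01 both with a pseudocount of 0.1 RPM and without one. Divided by gene length, SPS2 and SPS22 held 55.6% of the family in the WT library. The ECM33 length includes its intron, so this share is overstated. Whether it lies above the undivided 54.4% is therefore not settled.

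Over all compared genes, 312 passed 2-fold upwards and 418 downwards. Centring gave 408 higher and 256 lower and a trimmed mean 395 and 267, so the excess of lower genes turned to an excess of higher ones. A filter at 50 RPM gave 253 lower. A 4-fold threshold gave 133 higher and 34 lower, and the exact binomial comparison of the 2 libraries 1476 and 2855. The 1 vegetative wall gene higher became 2 with a pseudocount of 0.1 RPM, with centring and with a trimmed mean, and the 10 lower became 2 at 4-fold. The 1 spore wall gene lower became 0 with a filter at 50 RPM and at 4-fold. Median log2 ratios of lists between -0.20 and 0, as for the early meiotic markers, turn positive when centred. No paired analysis was possible because there is 1 library per genotype. Depth limits little here, since each compared gene had at least 588 reads summed over both libraries, whereas the spread between cultures is not measured.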
